A study of Mus musculus with 8 samples.

Results

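Peg10, Sgce, Mest, Peg3, Snrpn, Ndn, Igf2, Plagl1, Zrsr1 and Dlk1 are 10 imprinted genes that are transcribed mainly from the copy inherited from the father. They were chosen by symbol among the 24354 genes listed in the expression table, with earlier results of the same libraries known, so their levels and differences are given here as a description. No p-value is given for them, and a later count of how many the fit across all genes called is no independent evidence. RNA was measured in 8 libraries, 2 for each of 4 mouse cell lines, and the table gives FPKM, the number of sequenced fragments per kilobase of transcript and per 1000000 mapped fragments. The question of the study was whether a neural stem cell genome takes on the state of an extended pluripotent stem cell after fusion of both cells.

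The ESCs were the E14 line, labelled wild type, and were grown with serum and LIF on fibroblast feeders. The EPSCs, also labelled wild type, were line 1 at passage 15, derived from C57BL/6 embryos at the 8-cell stage and grown in N2B27-LCDM medium (LIF, CHIR99021, dimethindene maleate and minocycline) on the same kind of feeders. The NSCs carried 1 copy each of the OG2 transgene, which drives GFP from the distal enhancer of Oct4, and of the ROSA26 transgene, which drives lacZ in all cells, and they were grown without feeders on gelatin with EGF and FGF2. The hybrid cells were line 2-2 at passage 10, obtained by polyethylene glycol fusion of EPSCs and these NSCs, picked as GFP-positive colonies, near-tetraploid and grown as the EPSCs were. That EPSC line 1 was the line fused is assumed wherever it is called a parent here. Per the labels, all feeders were C3H mouse embryonic fibroblasts inactivated with mitomycin C. Each group is 1 line, so the 2 libraries of a group show the spread between repeated libraries and not between lines.

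At an imprinted gene, the copies inherited from both parents carry different DNA methylation, which is laid down in the egg or in sperm and is kept through cell division in the embryo. At Mest, Peg3, Plagl1, Snrpn and Peg10, the methylated copy at the promoter is the maternal one, which leaves the paternal copy to be transcribed. Igf2 and Dlk1 instead lie in clusters whose methylated control region is on the paternal chromosome. The RNA values do not separate the parental copies, so each value is the sum over all copies in the cell. In these bulk libraries, fewer cells that express a gene and less RNA per cell cannot be told apart.

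The zinc finger protein ZFP57 binds the methylated hexamer TGCCGC and protects imprints in early embryos. The promoters of 3 members at which the maternal copy is known to be methylated are shown because the data below include the level of Zfp57 itself. Each runs from 250 bases before to 50 bases after an annotated start (RefSeq, GRCm38.p6), reads 5′ to 3′ on the strand of the gene, and has every TGCCGC of either strand in capitals. The Mest window is chr6:30737800-30738099 (+), the Plagl1 window is chr10:13090582-13090881 (+) and the Peg3 window is chr7:6730370-6730669 (-).
Mest: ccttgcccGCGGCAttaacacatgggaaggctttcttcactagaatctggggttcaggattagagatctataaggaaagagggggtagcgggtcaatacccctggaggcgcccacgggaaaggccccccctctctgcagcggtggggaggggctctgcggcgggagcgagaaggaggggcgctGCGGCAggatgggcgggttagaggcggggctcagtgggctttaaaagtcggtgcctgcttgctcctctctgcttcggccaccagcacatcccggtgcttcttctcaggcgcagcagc
Plagl1: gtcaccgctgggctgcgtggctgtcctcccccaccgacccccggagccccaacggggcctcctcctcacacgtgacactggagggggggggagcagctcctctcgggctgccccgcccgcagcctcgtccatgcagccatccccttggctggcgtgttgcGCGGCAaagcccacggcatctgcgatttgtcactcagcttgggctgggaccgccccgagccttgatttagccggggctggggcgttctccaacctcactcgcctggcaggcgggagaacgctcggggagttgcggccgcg
Peg3: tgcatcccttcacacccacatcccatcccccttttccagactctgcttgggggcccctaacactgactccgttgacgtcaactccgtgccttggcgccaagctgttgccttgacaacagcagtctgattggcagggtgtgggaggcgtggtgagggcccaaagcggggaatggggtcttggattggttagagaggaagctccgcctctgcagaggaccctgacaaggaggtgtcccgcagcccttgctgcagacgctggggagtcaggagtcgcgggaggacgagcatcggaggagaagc

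This Mest window held 2 copies of the hexamer and 17 CpG pairs, and the Plagl1 window held 1 copy and 26 CpG pairs. The Peg3 window held 13 CpG pairs and no copy, which says only that these letters were not in these 300 bases. It shared 263 bases with the window of Usp29, which starts in the opposite direction. Windows were matched for 8 of the 10 members, not for Peg10 and Sgce, and of their 16 windows 5 held the hexamer. Of these 5, 2 are Mest windows that start 3 bases apart and hold the same copies, and the other Mest window, at a start further upstream, held none. Among 32851 promoter windows of the same length, 3813 (11.6%) held it and the median window had 7 CpG pairs.

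Pluripotency markers were high in ESCs, EPSCs and hybrid cells, and NSC markers were high in NSCs. Neither list was made to tell ESCs, EPSCs and hybrid cells apart. The summed FPKM of 8 pluripotency markers was 2190 to 2840 in ESCs, EPSCs and hybrid cells and 119 to 123 in NSCs, nearly all of the latter from Sox2. The sum of 8 NSC markers was 3700 to 3750 in NSCs and 10.6 to 19.3 in the other libraries. The sum of 13 fibroblast markers was 12.7 and 14 in ESCs, 8.22 and 8.18 in NSCs, 91.2 and 87.7 in EPSCs, and 345 and 257 in hybrid cells. All 12 of these fibroblast genes that could be tested were called higher in hybrid cells than in EPSCs (limma), beside 22.5% of all tested genes. Col1a2, Lum, Twist2 and Fap were listed at 0 in both NSC libraries. The other markers were Col1a1, Col3a1, Col6a3, Dcn, Fbn1, Pdgfra, Pdgfrb, Thy1 and Postn. The paper treats Postn as a gene specific to EPSCs. Its means were 36.1 (hybrid cells), 11.0 (EPSCs), 0.508 (ESCs) and 0.0118 (NSCs). Collagen fibril organization is among the processes that the paper reports as raised over ESCs, both for EPSCs and for hybrid cells. How much of the fibroblast sum came from feeders was not tested. The depth derived from the steps between FPKM values was 22.0 to 32.6 per library in units of 1000000 fragments.

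**Figure D1:**
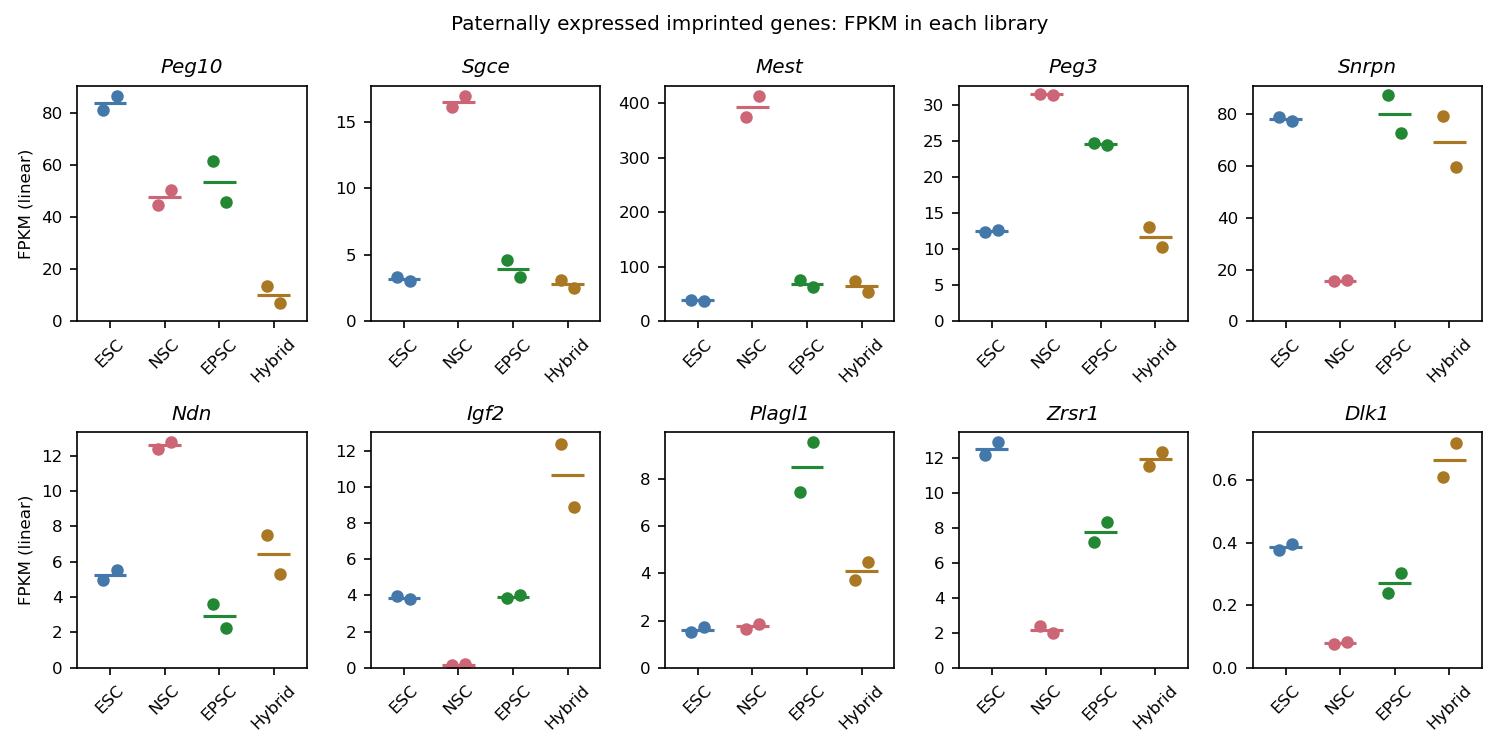
FPKM (linear axes from 0, one scale per gene) of the 10 genes in each of the 8 libraries, with points for libraries and lines for the mean of 2. Peg10 is lowest in hybrid cells, Mest and Sgce are highest in NSCs, and Igf2 and Dlk1 are highest in hybrid cells.

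The 10 genes did not share a pattern. Both hybrid cell libraries lay below all 4 parental libraries for Peg10, Sgce and Peg3, and above all 4 for Igf2, Zrsr1 and Dlk1, while Mest, Snrpn, Ndn and Plagl1 did not lie outside both parental lines. Over the 13239 genes tested, 16.2% lay below and 18.7% lay above in the same way. Because the members were chosen with such values in view, nothing is read from these shares.

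Peg10 and Sgce start next to each other on chromosome 6 and are read in opposite directions. Peg10 (chr6:4747306-4760517) is derived from a retrotransposon and is needed to form the placenta. It was at 81.1 and 86.4 FPKM in ESCs, 61.5 and 45.8 in EPSCs, 44.6 and 50.6 in NSCs, and 13.4 and 7.05 in hybrid cells. Both hybrid cell libraries were thus below all the others, and the EPSC and NSC libraries overlapped. The mean in hybrid cells, 10.2 ± 4.52 (SD, n = 2), was 5.24-fold lower than in EPSCs and 4.65-fold lower than in NSCs. The log2 difference between hybrid cells and EPSCs was -2.33 (SE 0.26), and it was -2.75 without hybrid cell replicate 1 and -1.91 without replicate 2. Peg10 stood at the 85.7th percentile of the tested genes in EPSCs and at the 52.7th in hybrid cells.

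Sgce (chr6:4674350-4747204) encodes epsilon-sarcoglycan, a membrane protein of the dystrophin complex. It was at 3.34 and 3.03 FPKM in ESCs, 4.63 and 3.30 in EPSCs, 16.1 and 17.0 in NSCs, and 3.10 and 2.53 in hybrid cells. NSCs were high, the ESC libraries overlapped with those of EPSCs and of hybrid cells, and hybrid cells lay just below EPSCs. The hybrid cell mean was 5.86-fold lower than the NSC mean and 1.41-fold lower than the EPSC mean.

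The ratio of Peg10 to Sgce differed between the lines. It was 24.3 and 28.5 in ESCs, 13.3 and 13.9 in EPSCs, 2.78 and 2.98 in NSCs, and 4.33 and 2.78 in hybrid cells. The ratio in hybrid cells therefore overlapped with that in NSCs and lay below that in EPSCs. In the same region, the actin-binding gene Ppp1r9a was at 4.40 and 3.49 FPKM in EPSCs, 14.1 and 14.4 in NSCs, and 2.22 and 1.70 in hybrid cells, and it fell against EPSCs (log2 difference -0.74, adjusted p = 0.00286, limma) and against NSCs (-2.37, adjusted p = 6.6e-07). Casd1, a sialic acid acetyltransferase gene near Sgce, was at a mean of 3.26 in EPSCs, 9.27 in NSCs and 2.49 in hybrid cells, and its log2 difference against EPSCs was -0.28 (adjusted p = 0.0585, limma). Col1a2, a collagen gene of the same region and one of the fibroblast markers, rose in hybrid cells from 18.0 to 57.7 (log2 difference 1.61, adjusted p = 0.000321, limma).

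Mest (chr6:30733506-30748466) encodes a protein of the hydrolase fold family that is abundant in embryonic mesoderm. It was at 39.3 and 38.1 FPKM in ESCs, 75.8 and 62.7 in EPSCs, 374 and 413 in NSCs, and 74.6 and 54.3 in hybrid cells. NSCs were far above all other libraries, and EPSCs and hybrid cells overlapped. In NSCs the gene stood at the 99.0th percentile of the tested genes. The hybrid cell mean of 64.5 ± 14.3 was 6.11-fold lower than the NSC mean, and the log2 difference from EPSCs was -0.11 (SE 0.15). Copg2, which meets the end of Mest from the opposite direction, had a mean of 22.4 in EPSCs, 19.6 in NSCs and 17.6 in hybrid cells, so that the ratio of Mest to Copg2 was 19 and 21.1 in NSCs and 2.05 to 4.17 in the other 6 libraries.

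Peg3 (chr7:6703892-6730462) encodes a zinc finger protein with roles in growth and maternal behaviour. It was at 12.4 and 12.7 FPKM in ESCs, 24.8 and 24.4 in EPSCs, 31.6 and 31.4 in NSCs, and 13.1 and 10.3 in hybrid cells. Hybrid cells and ESCs overlapped and were low, and EPSCs and NSCs were high without overlap. The mean was 2.11-fold lower in hybrid cells than in EPSCs and 2.69-fold lower than in NSCs. Zim1, a maternally expressed neighbour, was at 1.25 and 1.26 FPKM in NSCs and at 0.121 to 0.173 elsewhere. Usp29, which shares the start region of Peg3, was at 0.0781 to 0.450 FPKM in all libraries and was not tested.

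Snrpn and Ndn lie in the region of chromosome 7 that matches the human Prader-Willi region. Snrpn (chr7:59982495-60450177) encodes a splicing protein of the Sm family. It was at 78.9 and 77.3 FPKM in ESCs, 87.2 and 72.8 in EPSCs, 15.7 and 15.8 in NSCs, and 79.1 and 59.4 in hybrid cells. The NSC libraries were low and the other 6 libraries overlapped, with a hybrid cell mean 4.40-fold above the NSC mean. The log2 difference between hybrid cells and EPSCs was -0.21 (SE 0.13). It was -0.42 without hybrid cell replicate 1, where Snrpn was called as lower, and -0.01 without hybrid cell replicate 2. Snurf, which shares its first exons with Snrpn, followed it at a ratio of 16 to 17.6 in every library, and fragments of both genes may be split between them.

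Ndn (chr7:62348277-62349928) is a gene without introns for necdin, a protein that restrains the cell cycle in neurons. It was at 4.99 and 5.52 FPKM in ESCs, 3.61 and 2.23 in EPSCs, 12.4 and 12.8 in NSCs, and 7.53 and 5.29 in hybrid cells. Both NSC libraries were above the other 6 and both EPSC libraries below them, while the hybrid cell and ESC libraries overlapped. Snrpn, in contrast, was lowest in NSCs. The mean in hybrid cells was 2.2-fold above the EPSC mean and 1.96-fold below the NSC mean. The fibroblast sum was also higher in hybrid cells (345 and 257) than in EPSCs (91.2 and 87.7), and its part in the Ndn level was not tested. The ratio of Snrpn to Ndn was 1.27 and 1.23 in NSCs, 24.2 and 32.7 in EPSCs, 10.5 and 11.2 in hybrid cells, and 15.8 and 14 in ESCs.

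Among the other paternally expressed genes of this region, Snhg14 was lowest in NSCs and Peg12 was highest there. Snhg14, the long noncoding host of small nucleolar RNAs, was at 21.8 and 20.3 FPKM in EPSCs, 3.22 and 3.94 in NSCs, and 14.7 and 17.4 in hybrid cells, and it rose against NSCs (log2 difference 1.90, adjusted p = 1.4e-06, limma). Peg12 was at 0.352 and 0.25 in EPSCs, 18.3 and 20.1 in NSCs, and 1.30 and 1.57 in hybrid cells, and rose against EPSCs (0.90, adjusted p = 0.000528) and fell against NSCs (-3.05, adjusted p = 5.1e-08, limma). The fibroblast sum was higher in hybrid cells than in EPSCs, as given for Ndn, and its part in the rise of Peg12 was not tested. Mkrn3, a ubiquitin ligase gene, was at a mean of 0.824, 2.26 and 1.22 in the same 3 lines, and at 3.08 and 2.63 in ESCs, with a fall in hybrid cells against NSCs (-0.56, adjusted p = 0.000639, limma). Against EPSCs, the values of Mkrn3 (0.28, adjusted p = 0.0399) and Snhg14 (-0.38, adjusted p = 0.0287) did not hold without single libraries. Without either ESC library, either EPSC library or hybrid cell replicate 1, Snhg14 had an adjusted p of 0.055 to 0.116, and without either NSC library, either EPSC library or hybrid cell replicate 1, Mkrn3 had 0.0593 to 0.145. Magel2 was listed at 0 in both NSC libraries and at 0.0492 to 0.697 elsewhere, and was not tested. Ube3a, a ubiquitin ligase gene of the region, fell in hybrid cells from a mean of 21.8 in EPSCs to 11.9 (-0.82, adjusted p = 0.00125, limma). It is on the list of maternally expressed genes, but its parental copies were not separated here.

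Igf2 (chr7:142650768-142666816) encodes a fetal growth factor. It was at 3.98 and 3.79 FPKM in ESCs, 3.83 and 4.0 in EPSCs, 0.151 and 0.208 in NSCs, and 12.4 and 8.88 in hybrid cells. Both hybrid cell libraries were above all others, ESCs and EPSCs overlapped, and the NSC values correspond to between 2 and 27 fragments depending on the transcript assumed. The hybrid cell mean of 10.6 ± 2.48 was 2.72-fold above the EPSC mean of 3.91 ± 0.116, with a log2 difference of 1.23 (SE 0.14). The fibroblast markers moved with this difference, with sums of 87.7 and 91.2 in EPSCs and of 257 and 345 in hybrid cells, and Col1a1 rose 3.66-fold (adjusted p = 0.000185, limma). Between ESCs and EPSCs, where the fibroblast sum went from 12.7 and 14 to 91.2 and 87.7, the Igf2 libraries overlapped. The ratio of Igf2 to Col1a1 was 2.15 and 1.83 in ESCs, 0.281 and 0.255 in EPSCs, and 0.203 and 0.192 in hybrid cells. The part of feeder RNA in the Igf2 level was not tested.

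H19, the maternally expressed noncoding RNA that neighbours Igf2 and shares its enhancers, was at 1.60 and 1.17 FPKM in ESCs, 18.4 and 17.1 in EPSCs, 3.62 and 3.31 in NSCs, and 40.3 and 29.3 in hybrid cells. It rose in hybrid cells against EPSCs (log2 difference 0.91, adjusted p = 0.00337) and in EPSCs against ESCs (2.98, adjusted p = 9.8e-06, limma), in the same order as the fibroblast sum in these 3 lines, whose part was not tested. The ratio of Igf2 to H19 was 2.49 and 3.24 in ESCs, 0.208 and 0.234 in EPSCs, and 0.307 and 0.303 in hybrid cells. In both hybrid cell libraries the ratio was therefore above that of EPSCs and below that of ESCs.

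**Figure D2:**
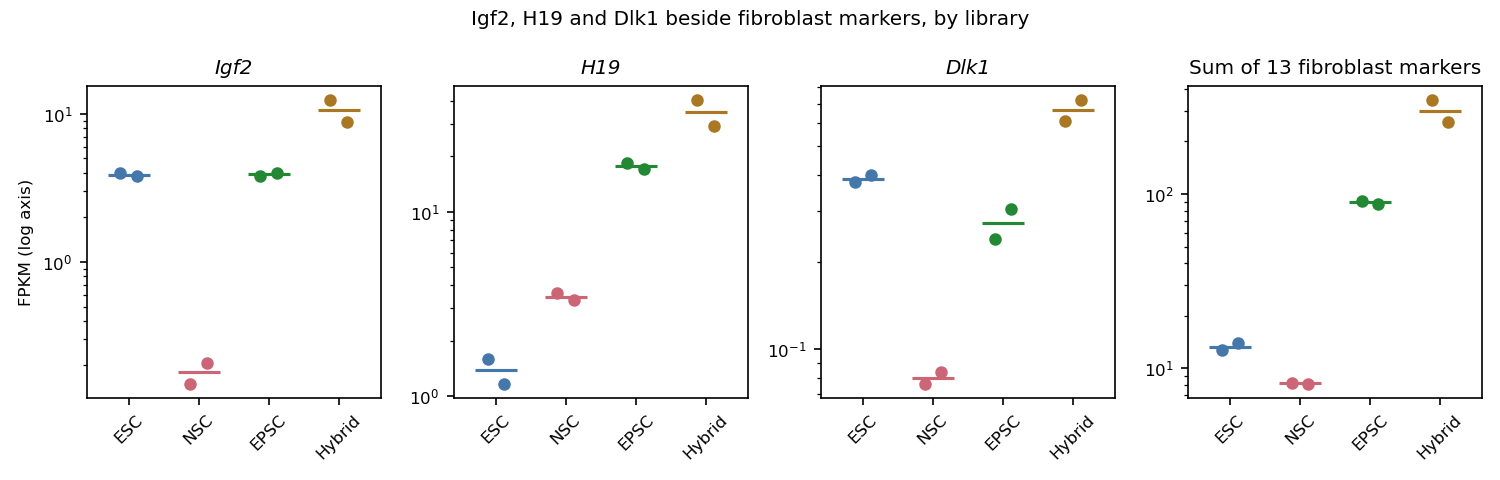
FPKM (log axes, each panel with its own range) of Igf2, H19 and Dlk1 and the summed FPKM of 13 fibroblast markers in each library, with points for libraries and lines for the mean of 2. All 4 panels are highest in hybrid cells, while ESCs and EPSCs overlap for Igf2 and are far apart for the fibroblast sum.

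A separate list held 13 genes related to IGF2, namely Igf1, receptors and their substrates, secreted IGF-binding proteins and IGF2 mRNA-binding proteins, of which 12 were tested. In hybrid cells against EPSCs, 7 rose, none fell and 5 were not called, with a median log2 difference of 0.34 against 0.00 over all tested genes, of which 22.5% rose. Igf2bp2, an RNA-binding protein gene, rose from 20.7 to 56.4 FPKM (1.40, adjusted p = 8.3e-05), and Igf2r, the receptor that clears IGF2, rose from 17.0 to 22.9 (0.42, adjusted p = 0.0146, limma). The binding protein genes Igfbp5 (0.469 to 1.97, adjusted p = 0.000798) and Igfbp3 (8.63 to 14.8, adjusted p = 0.000337, limma) also rose, and Igfbp4 (log2 difference 0.43, adjusted p = 0.042) was not called without either ESC library, either NSC library, EPSC replicate 1 or hybrid cell replicate 1 (adjusted p of 0.0684 to 0.172). Igf1r, the signalling receptor, was at 2.58 in EPSCs and 2.71 in hybrid cells (adjusted p = 0.652, limma). Against NSCs 4 rose and 8 fell, beside 86.5% called over all tested genes, with Igfbp3 down from 276.5 to 14.8 FPKM and Igfbp4 from 136.1 to 4.80, while Igf2bp1 was listed at 0 in both NSC libraries and at 129 in both hybrid cell libraries. Fibroblasts also express several of these binding proteins, and the part of feeder RNA was not tested.

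Plagl1 (chr10:13090832-13131694) encodes a zinc finger factor that restrains proliferation and regulates other imprinted genes. It was at 1.52 and 1.71 FPKM in ESCs, 7.43 and 9.56 in EPSCs, 1.65 and 1.85 in NSCs, and 3.72 and 4.50 in hybrid cells. EPSCs were high, ESCs and NSCs were low and overlapped, and hybrid cells lay between both parents. The EPSC mean was 5.26-fold above the ESC mean, and the hybrid cell mean was 2.07-fold below the EPSC mean and 2.35-fold above the NSC mean. The fibroblast sum was also higher in EPSCs than in ESCs, as given above, and its part in the Plagl1 level was not tested.

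Zrsr1 (chr11:22972005-22976496) is a retrotransposed splicing factor gene that lies within Commd1. It was at 12.2 and 12.9 FPKM in ESCs, 7.23 and 8.33 in EPSCs, 2.39 and 1.99 in NSCs, and 11.5 and 12.4 in hybrid cells. The hybrid cell libraries overlapped with those of ESCs and lay above both parents, 1.54-fold above the EPSC mean and 5.45-fold above the NSC mean. Commd1, the host gene, had a mean of 111.3 in EPSCs, 80.6 in NSCs and 109.1 in hybrid cells, and the ratio of Zrsr1 to Commd1 went from 0.0595 and 0.0823 in EPSCs to 0.107 and 0.113 in hybrid cells. The fibroblast sum was also higher in hybrid cells than in EPSCs, as given above, and its part in the Zrsr1 level was not tested. Fragments from the 2 overlapping genes may have been divided between them, since the strand setting of the counting was not stated.

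Dlk1 (chr12:109452485-109463336) encodes a membrane protein of the Notch ligand family that holds back differentiation. It was at 0.377 and 0.398 FPKM in ESCs, 0.240 and 0.304 in EPSCs, 0.0762 and 0.0836 in NSCs, and 0.612 and 0.721 in hybrid cells. The groups did not overlap, but all values were below the minimum for testing, and the NSC values correspond to between 1 and 11 fragments depending on the transcript assumed. The mean in hybrid cells was 2.45-fold above that in EPSCs. Fibroblasts of the embryo also express Dlk1, the fibroblast sum was 257 and 345 in hybrid cells against 87.7 and 91.2 in EPSCs, and its part was not tested.

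The maternally expressed noncoding RNAs of the Dlk1 cluster were detected in all lines but NSCs. Meg3 was at 63.9 and 65.4 FPKM in ESCs, 46.4 and 31.6 in EPSCs, and 30.1 and 23.7 in hybrid cells, and was listed at 0 in both NSC libraries. Rian and Mirg were also listed at 0 in NSCs. In hybrid cells against EPSCs, Mirg fell from 7.79 to 2.12 (log2 difference -1.44, adjusted p = 0.00232), Rian was at 17.7 against 38.3 (-1.05, adjusted p = 0.0174) and Meg3 did not pass the test (-0.51, adjusted p = 0.0518, limma). The Rian value was -0.65 without EPSC replicate 1 and -0.74 without hybrid cell replicate 2, with no call in either. Dio3, the paternally expressed deiodinase gene at the far end of the cluster, was at 5.67 and 5.55 in EPSCs and 2.13 and 2.7 in hybrid cells (-0.96, adjusted p = 0.000488, limma), and Rtl1 was at 0.00895 FPKM or less in every library.

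**Figure D3:**
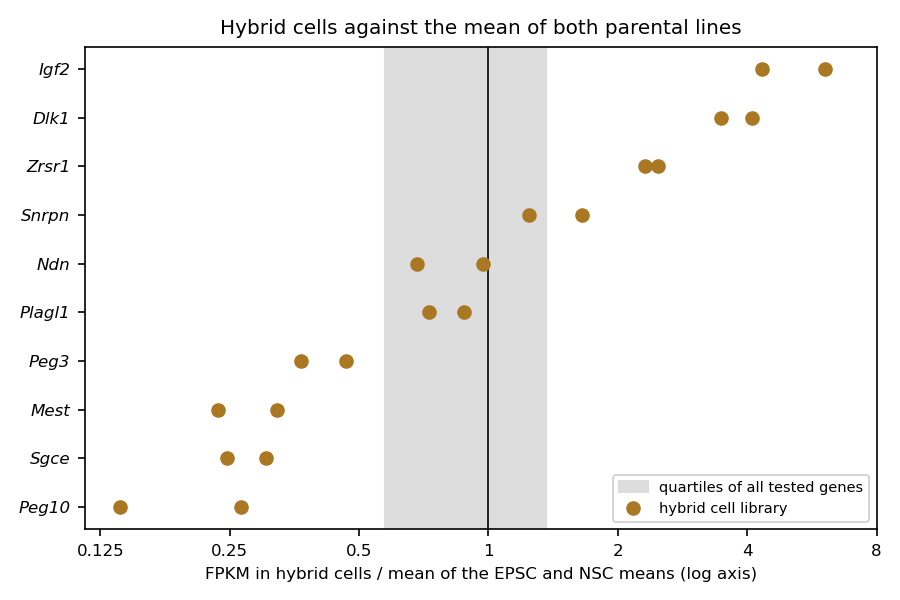
FPKM in each hybrid cell library divided by the mean of the EPSC and NSC means (log axis), for 10 genes with 1 point per library, and a grey band from the first to the last quartile of all tested genes (0.574 to 1.36). Peg10 has the lowest point (0.139) and the lowest mean, and Igf2 has the highest points (6.05 and 4.34).

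Fusion brings 1 EPSC genome and 1 NSC genome into a common nucleus, so each level in hybrid cells was also set against the mean of both parents. This ratio was 0.202 for Peg10, 0.275 for Sgce, 0.278 for Mest and 0.417 for Peg3. It was 0.802 for Plagl1, 0.827 for Ndn and 1.45 for Snrpn. It was 2.40 for Zrsr1, 3.79 for Dlk1 and 5.20 for Igf2. Over all tested genes the median ratio was 0.963, with 11.0% of genes under 0.25, where Peg10 also lay. The 2 hybrid cell libraries fell on the same side of 1 for every member. For Peg10, Sgce and Peg3, both hybrid cell libraries lay below all EPSC and NSC libraries, as for 16.2% of all tested genes.

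**Figure D4:**
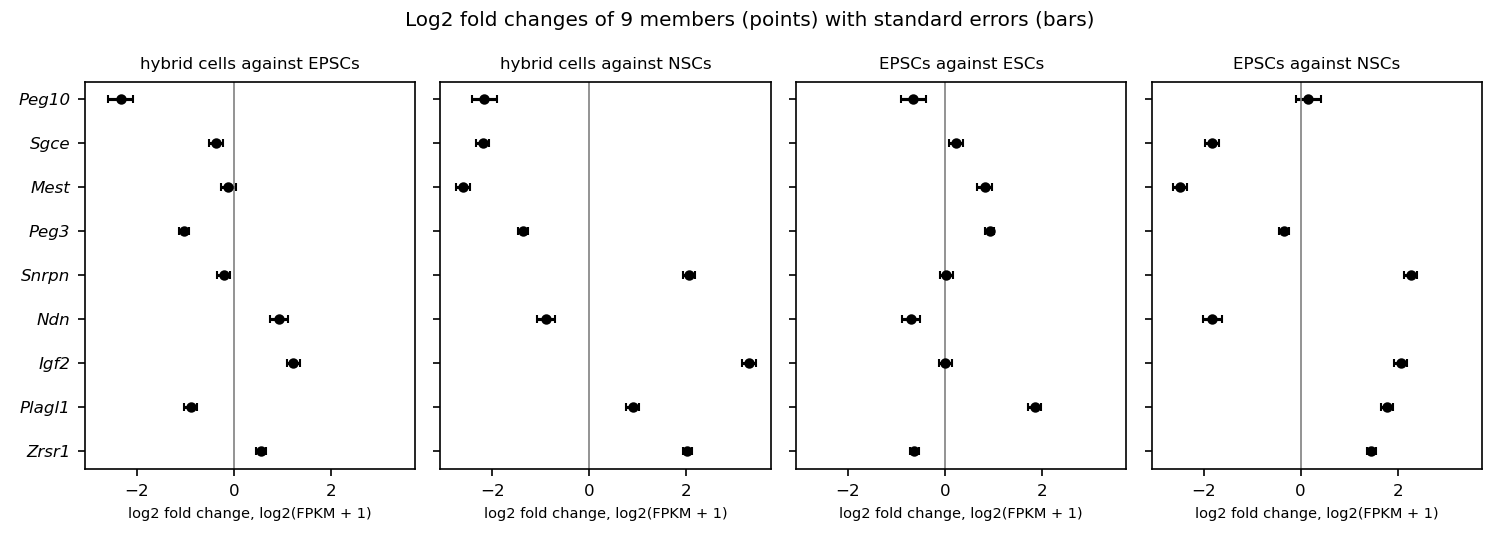
Log2 fold changes on the log2(FPKM + 1) scale (x axis) of the 9 genes that passed the filter, in 4 comparisons, with points for the estimate and bars for its standard error. Against EPSCs the hybrid cell values run from -2.33 (Peg10) to 1.23 (Igf2), and against NSCs from -2.61 (Mest) to 3.29 (Igf2).

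Of the 10 members, 9 passed the filter on low values and Dlk1 did not. In limma at an adjusted p under 0.05, hybrid cells against EPSCs gave 3 higher (Ndn, Igf2 and Zrsr1), 3 lower (Peg10, Peg3 and Plagl1) and 3 not called (Sgce, Mest and Snrpn), where 44.4% of all tested genes were called, 22.5% as higher and 21.9% as lower. Ndn was not called there when only these 2 groups were fitted. Sgce was called as lower there after scaling to a sum of 1000000 and with the replicate number as a block. Without EPSC replicate 2 it was also called, at a log2 difference of -0.57 in place of -0.37. Hybrid cells against NSCs gave 4 higher (Snrpn, Igf2, Plagl1 and Zrsr1) and 5 lower (Peg10, Sgce, Mest, Peg3 and Ndn), where 86.5% of all tested genes were called, 44.5% as higher and 42.0% as lower. The FPKM of all genes summed to 415240 and 415412 in the NSC libraries and to 600674 to 653796 in the others, so values against NSCs depend on the scaling. With every library scaled to the same sum, which moved the median of all tested genes from 0.06 to -0.51, the log2 difference of hybrid cells from NSCs went from -2.17 to -2.83 for Peg10, from -2.20 to -2.92 for Sgce, from -2.61 to -3.24 for Mest, from -1.37 to -2.0 for Peg3 and from -0.89 to -1.52 for Ndn. It went from 2.05 to 1.48 for Snrpn, from 3.29 to 3.61 for Igf2, from 0.89 to 0.51 for Plagl1 and from 2.02 to 1.65 for Zrsr1, and no member changed direction. The value of Igf2 depends on the pseudocount of 1, since NSCs were at 0.151 and 0.208 FPKM, and it was 5.25 with a pseudocount of 0.1. EPSCs against ESCs gave 3 higher (Mest, Peg3 and Plagl1), 2 lower (Ndn and Zrsr1) and 4 not called, where 61.0% were called, 33.7% as higher and 27.3% as lower. The fibroblast sum was also higher in EPSCs (91.2 and 87.7) than in ESCs (12.7 and 14), and its part in these 3 rises was not tested. Ndn was not called there without either ESC library or without EPSC replicate 2. Peg10 (-0.65, SE 0.26), not called there, was called as lower after scaling to a sum of 1000000 and after quantile normalization. The same held with only these 2 groups fitted, with the replicate number as a block and without either hybrid cell library. Sgce was called as higher there without EPSC replicate 2. EPSCs against NSCs gave 4 higher, 4 lower and 1 not called, Peg10, where 86.2% were called, 45.2% as higher and 41.0% as lower, and Peg3 was not called as lower without either NSC library. By the rule of the study's methods, applied here as a group mean above 3 FPKM on the higher side and a more than 3-fold difference of means, Peg10 was the only member that differed between hybrid cells and EPSCs, as did 2.18% of the genes that reached that level. The study's text also names thresholds of 2 for both. With these, 5 members differed (Ndn and Igf2 higher, Peg10, Peg3 and Plagl1 lower), as did 7.24% of the genes that reached that level. The comparisons share libraries, and nothing is read from these counts, since the members were chosen with such values known.

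A separate list of 23 other paternally expressed genes was examined in the same fit, of which 22 were in the table and 16 were tested. In hybrid cells against EPSCs 5 rose, 7 fell and 4 were not called, beside 22.5% higher and 21.9% lower over all tested genes, with a median log2 difference of -0.28 against 0.00. Dio3 fell, as given above, and Impact, a translational regulator gene, fell from 50.4 to 27.7 FPKM (-0.84, adjusted p = 0.000373, limma). Peg12 and Inpp5f, an inositol phosphatase gene, rose, the latter from 1.30 to 2.84 (0.74, adjusted p = 0.000734, limma). The fibroblast sum was also higher in hybrid cells in this comparison, and its part in these 2 rises was not tested. The count of 12 calls was 7 when only the EPSC and hybrid cell libraries were fitted.

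Against NSCs, 9 of the 16 rose and 7 fell, beside 86.5% called over all tested genes. Slc38a4, an amino acid transporter gene, was listed at 0 in both NSC libraries and was at 46.7 and 61.8 FPKM in hybrid cells and 68.1 and 80.8 in EPSCs. Nap1l5 was at 44.2 and 44.5 in NSCs and at 0.321 and 0.286 in hybrid cells (log2 difference -5.12, adjusted p = 2.4e-09), and the neuronal gene Nnat was at 110.2 and 102.3 in NSCs and at 4.11 and 2.66 in hybrid cells (-4.63, adjusted p = 9.1e-08, limma). Between hybrid cells and EPSCs the log2 difference was 0.19 (adjusted p = 0.081, limma) for Nap1l5 and -0.39 (adjusted p = 0.0807) for Nnat.

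**Figure D5:**
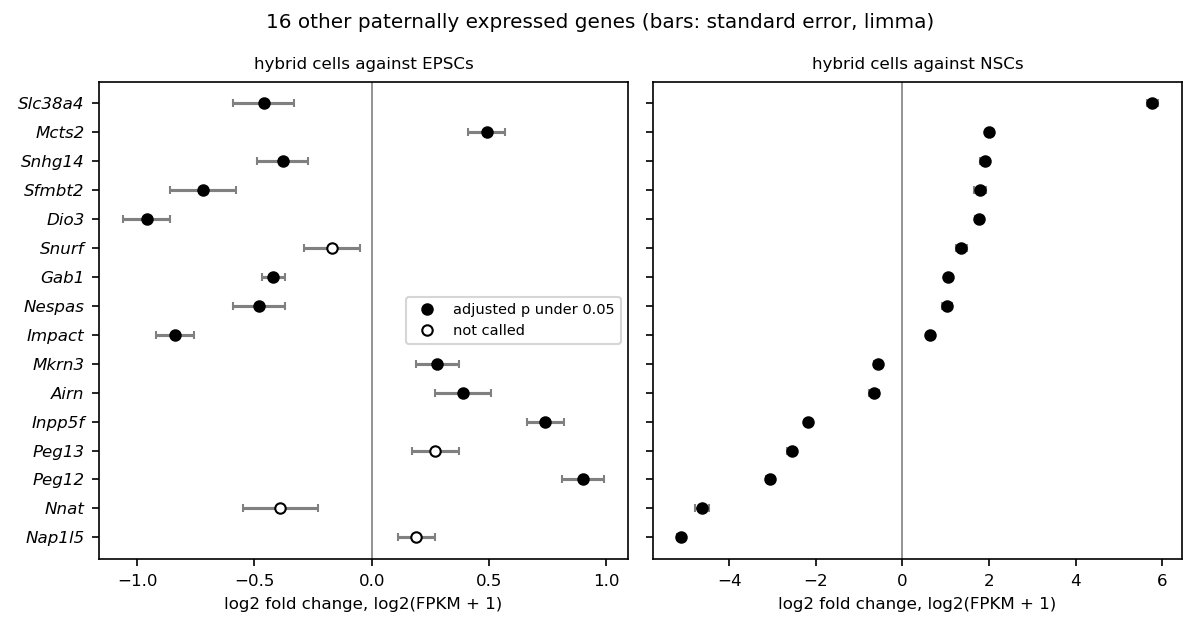
Log2 fold changes on the log2(FPKM + 1) scale (x axes of different range) of 16 other paternally expressed genes in hybrid cells against EPSCs and against NSCs, with bars for the standard error and filled points for adjusted p under 0.05. Against EPSCs the values stay between -0.96 (Dio3) and 0.90 (Peg12), and against NSCs they run from -5.12 (Nap1l5) to 5.77 (Slc38a4, listed at 0 in NSCs, so that this end depends on the pseudocount).

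Of the 15 maternally expressed genes listed for the members' regions, 12 were tested, and in hybrid cells against EPSCs 1 rose (H19), 5 fell and 6 were not called, beside 44.4% called over all tested genes, with a median log2 difference of -0.31. Against NSCs 6 rose and 6 fell, beside 86.5% called over all tested genes, among them Pon2, a lactonase gene near Peg10, at 38.0 and 41.9 FPKM in NSCs and 3.24 and 2.43 in hybrid cells (-3.42, adjusted p = 1.2e-07, limma). Genes outside the imprinted lists within 250 kb of a member, measured between the lower coordinates of the annotated spans, numbered 75, of which 15 were tested. Of these, 5 rose and 3 fell in hybrid cells against EPSCs, with a median of 0.00. Cct4, a chaperonin subunit gene near Zrsr1, was at means of 441.7 and 505.4 FPKM in EPSCs and hybrid cells (adjusted p = 0.0603), and Ltv1, a ribosome assembly gene near Plagl1, fell from 72.9 to 54.3 (-0.41, adjusted p = 0.00888, limma). Sf3b5, nearer to Plagl1 than Ltv1, was not called (-0.14, adjusted p = 0.0838, limma). Mrpl23, a mitochondrial ribosomal protein gene near Igf2, fell from 50.3 to 30.7 (-0.69, adjusted p = 0.000276, limma), opposite in direction to Igf2. Lsp1, also near Igf2, rose (0.83, adjusted p = 0.000897, limma), and so did Col1a2, as given above. The part of the fibroblast sum in the rise of Lsp1 was not tested.

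Among 10 genes that act on imprints, 1 rose, 3 fell and 6 were not called in hybrid cells against EPSCs, beside 44.4% called over all tested genes. Zfp57 was at 206.9 and 214.1 FPKM in EPSCs, 216.5 and 206.4 in hybrid cells, 257 and 260.3 in ESCs, and 4.68 and 4.56 in NSCs, and its log2 difference between hybrid cells and NSCs was 5.24 (adjusted p = 6.3e-10, limma). Its corepressor Trim28 was at 144.9 and 147.3 in NSCs and at 627 and 576 in hybrid cells (2.03, adjusted p = 3.2e-08, limma). Dppa3, which shields maternal methylation after fertilization, was listed at 0 in NSCs and was at 74.9 and 70.9 in hybrid cells. The maintenance methyltransferase gene Dnmt1 rose from 68.2 in EPSCs to 89.0 in hybrid cells (0.38, adjusted p = 0.00193), and Tet2, an oxidase gene for methylated cytosine, fell from 14.2 to 7.95 (-0.78, adjusted p = 0.00317, limma). Tet1 was at 45.2 and 34.4 (-0.39, adjusted p = 0.0164) and Setdb1 at 35.2 and 29.8 (-0.23, adjusted p = 0.00748, limma). Tet1 was not called without EPSC replicate 1 (-0.36, adjusted p = 0.0722), nor were Tet1 and Setdb1 when only EPSCs and hybrid cells were fitted. DNA methylation itself was not part of the expression table.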

How the data were processed

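Poly-A RNA of 8 libraries was sequenced by the authors as stranded paired-end libraries. Reads were aligned to mm10 with STAR 2.7.9a, and the authors deposited FPKM per gene and library made with Cuffnorm of Cufflinks 2.2.1, per the labels. The annotation, strand setting and library scaling were not given in the sources used here. Columns were matched to samples by label, and 0 columns belonged to other samples.

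Ratios, means and SDs were computed on FPKM. Genes were tested with limma 3.58.1 (R 4.3.3, trend, two-sided) on log2(FPKM + 1), 4 groups in 1 fit with 4 residual degrees of freedom, over the 13239 genes with a mean of at least 1 in some group, with Benjamini-Hochberg adjustment over all of them. Fold changes on this scale understate those of low genes. P-values measure the spread between 2 libraries of 1 line, which may be technical. With 2 libraries against 2, an exact permutation test cannot reach p under 0.05. Tables were handled in Python 3.11.15 (pandas 2.3.3, numpy 2.4.6). Depth was derived from FPKM steps, assuming fragments of 200 nucleotides, and is approximate.

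The members and gene lists were chosen with earlier results of these data known. Beyond the members, up to 4 called genes per list and comparison with the largest change and no overlap between libraries were named, together with listed genes in a member's locus and up to 3 neighbours per member. Casd1, Col1a2, Cct4, Sf3b5, Ltv1, Mrpl23 and Lsp1 come from these neighbours, and Igf2r, Igf1r, Usp29, Magel2 and Rtl1 were named after their values were seen. Positions are spans of RefSeq genes on GRCm38. Alternatives were another pseudocount, 2 filters, 2 scalings, the 2 groups alone, a replicate block, other thresholds for the study's rule, and each library left out.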

Additional observations from a re-analysis of the deposited data

How the results depend on the processing

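Of 156 recomputed counts, 153 stayed within 1.5 times the reported ones. Other paternally expressed genes called between hybrid cells and EPSCs numbered 7 in place of 12 when only these 2 groups were fitted, where over all tested genes 2811 in place of 5881 were called. Members past the study's rule in that comparison numbered 5 in place of 1 with thresholds of 2, which the study's text also names, and 1 to 2 when each library was left out, with 2 without hybrid cell replicate 2. The log2 differences of the 9 tested members changed sign in 11 of 540 recomputations, all for the 4 uncalled differences of Mest (hybrid cells against EPSCs), Snrpn and Igf2 (EPSCs against ESCs) and Peg10 (EPSCs against NSCs), and 76 moved by more than 1 residual SD between libraries. Among named genes of other lists, 679 recomputations kept direction and call, 43 lost and 6 gained the call, and 3 changed direction, all for Commd1. In hybrid cells against EPSCs (-0.02 with all), Commd1 ran from -0.15 to 0.11 when each library was left out. It changed direction to 0.11 without EPSC replicate 1 and to 0.00 under quantile normalization. Against NSCs it changed from 0.43 unscaled to -0.18 after scaling to a sum of 1000000. The cause was not tested. That scaling moved the median of all tested genes from 0.06 to -0.51 in hybrid cells against NSCs. With the replicate number as a block, 7 members in place of 6 were called between hybrid cells and EPSCs, and 9 against NSCs. Between EPSCs and ESCs 6 members in place of 5 were called, and between EPSCs and NSCs 8. Other paternally expressed genes called between hybrid cells and EPSCs numbered 13 in place of 12. Over all tested genes the block gave 6060 calls in place of 5881 in hybrid cells against EPSCs, and 11511 in place of 11449 against NSCs. It gave 8250 in place of 8079 in EPSCs against ESCs, and 11441 in place of 11409 in EPSCs against NSCs. Deviations of same-numbered libraries correlated at 0.28 for hybrid cells and EPSCs and at -0.0169 to 0.0693 in the other 3 comparisons, and with 2 libraries per group and no shared source in the labels the numbers were not taken as a pairing. For a transcript of 2 kb, 3 fragments correspond to 0.0511 to 0.0757 FPKM in the 8 libraries, which limits the values of Dlk1 and Igf2 in NSCs and covers counting error only.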

Other observations

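Gm7367, a predicted gene in the region of Snrpn, was at 34.1 and 42.1 FPKM in ESCs and at a mean of 16.4 in NSCs, but at means of 0.00560 in EPSCs and 0.00196 in hybrid cells. It was picked after its values were seen. Its value is uncertain if near-identical copies share its fragments, which was not tested. Lsp1, an actin-binding protein gene of leukocytes in the region of Igf2, rose in hybrid cells from 0.568 to 1.79 FPKM against EPSCs (adjusted p = 0.000897, limma). The summed fibroblast markers went in the same comparison from 91.2 and 87.7 to 345 and 257, and their part was not tested.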
